A study of Mus musculus with 6 samples.

Results

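The 10 genes described here are the constant regions of immunoglobulin chains, Igkc, Iglc1, Iglc2, Iglc3, Ighm, Ighg2b and Igha, together with Jchain, Cd79a and Mzb1, which B cells and plasma cells express. They are 10 of the 32227 genes in the deposited count files. They were selected on measured values, namely their RNA in libraries of isolated splenic and tumor T cells, so their levels are given as a description with no test. The libraries came from adult mice of the genotypes Pdcd1fl/fl and Pdcd1 cKO, the second being Pdcd1fl/fl with a CD8 E8I cre that acts in CD8+ T cells. Thymus and spleen each came from 1 mouse of either genotype at baseline, with CD8+ T cells taken by a CD8a+ T cell isolation kit, and CD8+ T cells of B16-OVA melanomas were pooled from 3 mice on day 12 after tumor injection, following dissociation, removal of dead cells and capture with CD8 (TIL) microbeads. RNA was counted with PIPseq v3, a droplet method in which each unique molecular identifier (UMI) stands for a captured molecule. Each tissue and genotype has 1 library, so no test within a tissue was possible and none across tissues was made, and the 95% intervals below cover counting error only.

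An antibody joins heavy chains to light chains, and a B cell keeps a single productive light chain, kappa or lambda, beside a heavy chain that begins as mu and can switch to gamma or alpha. Plasma cells transcribe these chains at very high levels, and the joining chain is part of the polymeric IgM or IgA that they secrete. Mature CD8+ T cells do not make antibody, although the unrearranged heavy chain locus is known to give mu transcripts in developing T cells.

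The 6 libraries differed in depth. The thymic libraries held 1067 barcodes with 6389966 UMIs (Pdcd1fl/fl) and 2674 barcodes with 19304377 UMIs (Pdcd1 cKO), at medians of 4361 and 5384 UMIs per barcode. The splenic libraries held 6929 barcodes with 5935926 UMIs and 4963 barcodes with 8964626 UMIs, at medians of 728 and 1611, and the tumor libraries 457 barcodes with 9401747 UMIs and 561 barcodes with 7924590 UMIs, at medians of 13837 and 9510. The splenic Pdcd1fl/fl library was by far the shallowest, with 5267 of its 6929 barcodes under 1000 UMIs. At least 2 of 8 T cell genes (Cd3d, Cd3e, Cd3g, Cd8a, Cd8b1, Trac, Trbc1, Trbc2) were read in 100% and 99.96% of thymic barcodes, 68.0% and 98.0% of splenic barcodes and 93.2% and 99.1% of tumor barcodes, so T cell RNA was read in most barcodes of each library. Cd8b1 alone was read in 45.8% and 59.2% of thymic, 29.3% and 70.2% of splenic and 70.7% and 89.7% of tumor barcodes, and in the tumor library labelled Pdcd1fl/fl 143 of 457 barcodes were classed as melanocyte.

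Pdcd1 RNA went against the genotype labels in thymus and spleen, and in tumor its direction depended on the scaling. It was read at 12 UMIs in the thymic library labelled Pdcd1fl/fl and 133 in the one labelled Pdcd1 cKO, at 2 and 104 UMIs in spleen, and at 717 and 808 UMIs in tumor. Scaled to the UMIs of the library (CPM) this was 1.88 and 6.89 in thymus, 0.337 and 11.6 in spleen, and 76.3 and 102 in tumor, higher in the library labelled Pdcd1 cKO each time. The tumor libraries also differed in T cell RNA, and per 1000 UMIs of the 8 T cell genes, a scaling chosen after the values were seen, Pdcd1 was 0.315 and 1.20 in thymus, 0.0795 and 2.01 in spleen, but 29.6 and 21.7 in tumor. Genotypes below are therefore names of libraries. Whether these UMIs lie in the deleted part of Pdcd1 cannot be told from the counts. Of the 15 pairs of libraries, only the 2 splenic libraries shared barcodes, 2 in all, and neither was rich in immunoglobulin. No step that removes doublets is named for these files, and none was applied.

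Summed over the 7 chain genes, immunoglobulin RNA was highest in the spleen labelled Pdcd1 cKO. It came to 138 and 97.2 CPM in the thymic libraries labelled Pdcd1fl/fl and Pdcd1 cKO, 313 (95% interval 299 to 328) and 3255 (3217 to 3292) in the splenic libraries, and 30.3 and 362 in the tumor libraries. These sums rest on 883, 1876, 1858, 29176, 285 and 2872 UMIs. Thymus and the other tissues differed in which chain made up the sum: Ighm was 98.4% and 95.1% of chain UMIs in the thymic libraries, whereas Igkc joined it in spleen and tumor, and lambda genes in the libraries labelled Pdcd1 cKO of these tissues. All 10 genes had a UMI in each splenic library, 9 in the tumor library labelled Pdcd1 cKO, 7 in the tumor library labelled Pdcd1fl/fl, and 7 and 6 in the thymic libraries labelled Pdcd1fl/fl and Pdcd1 cKO.

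**Figure D1:**
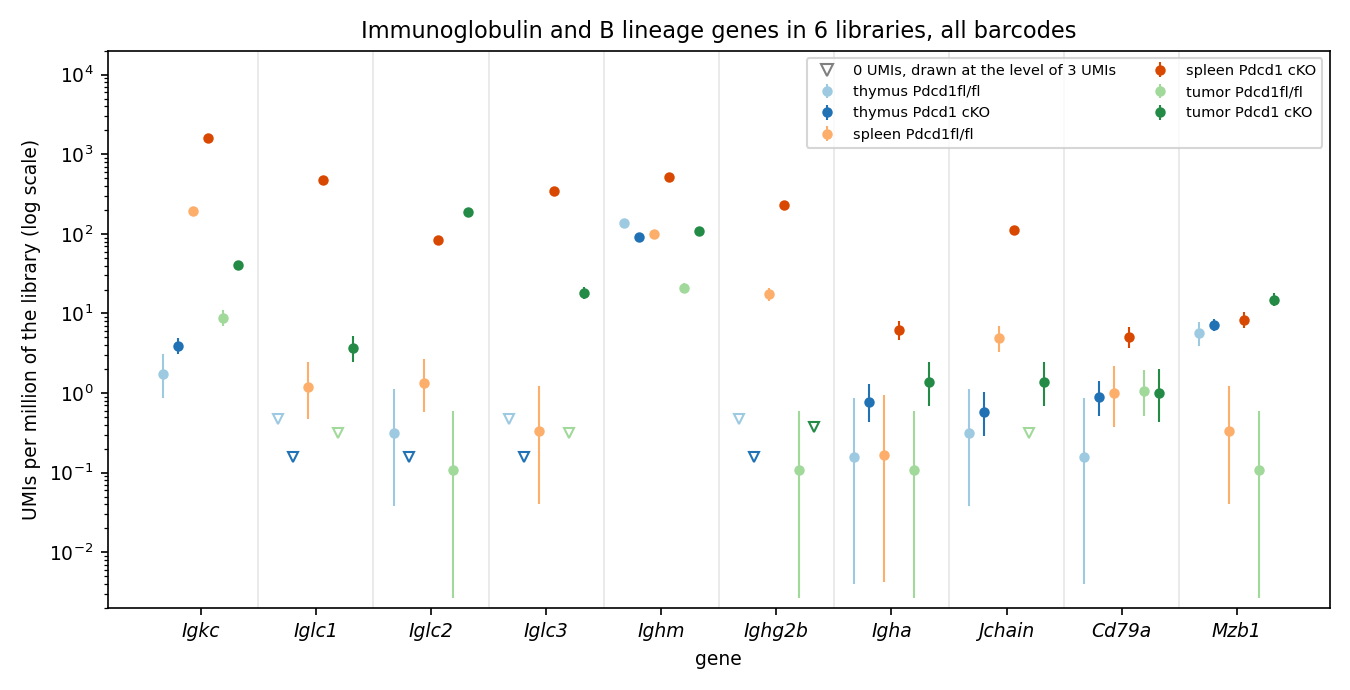
CPM (log axis) for the 10 genes in the 6 libraries, over all deposited barcodes; points are values of 1 library each, bars are exact Poisson 95% intervals, and open triangles mark 0 UMIs, drawn at the level of 3 UMIs. The splenic library labelled Pdcd1 cKO lies above the other libraries for 8 genes, while Iglc2 and Mzb1 are highest in the tumor library labelled Pdcd1 cKO at 189.7 and 14.9.

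Igkc (ENSMUSG00000076609, chr6:70703419-70703950, plus strand), the constant region of kappa light chains, stood at 1.72 and 3.94 CPM in the thymic libraries labelled Pdcd1fl/fl and Pdcd1 cKO, 193 and 1593 in spleen, and 8.83 and 40.1 in tumor. It was thus nearly absent from thymus and reached its top in the splenic library labelled Pdcd1 cKO. There a UMI of Igkc was read in 2702 of 4963 barcodes (54.4%), against 517 of 6929 (7.46%) in the other splenic library. Thinning each barcode to 1000 UMIs and leaving out shallower barcodes gave 38.4% (37.0 to 39.7) and 6.50% (5.36 to 7.79), where 0 barcodes were left out of the first library and 5267 of the second. Thinned shares were 0.0937% and 0.524% in thymus and 0.875% and 4.99% in tumor.

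The lambda constant regions were nearly confined to the libraries labelled Pdcd1 cKO of spleen and tumor. Iglc1 (ENSMUSG00000105906, chr16:18880368-18880821, minus strand) had 0 UMIs in both thymic libraries, 7 and 4214 in the splenic libraries labelled Pdcd1fl/fl and Pdcd1 cKO, and 0 and 29 in the tumor libraries, which is 1.18 and 470.1 CPM in spleen and 3.66 in the second tumor library. Iglc2 (ENSMUSG00000076937, chr16:19017146-19019101, minus strand) had 2 and 0 UMIs in thymus, 8 and 747 in spleen and 1 and 1503 in tumor, or 1.35 and 83.3 CPM in spleen and 0.106 and 189.7 in tumor. Iglc3 (ENSMUSG00000105547, chr16:18883980-18884431, minus strand) had 0 UMIs in thymus, 2 and 3143 in spleen and 0 and 144 in tumor. A count of 0 allows up to 3 UMIs, which is 0.469 and 0.155 CPM in the thymic libraries labelled Pdcd1fl/fl and Pdcd1 cKO and 0.319 in the tumor library labelled Pdcd1fl/fl.

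Ighm (ENSMUSG00000076617, chr12:113382178-113386350, minus strand), the mu heavy chain, was the only chain gene with a high level in every tissue. It stood at 136 and 92.5 CPM in the thymic libraries labelled Pdcd1fl/fl and Pdcd1 cKO, 99.6 and 524 in spleen, and 21.2 and 109 in tumor. A UMI was read in 43.0% and 33.4% of thymic, 6.52% and 25.3% of splenic and 23.6% and 24.6% of tumor barcodes. Thinned to 1000 UMIs these became 10.9% and 6.96%, 7.22% and 15.7%, and 1.75% and 4.28%.

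Of the switched heavy chains, Ighg2b was read in 3 libraries and Igha in all 6 at few UMIs. Ighg2b (ENSMUSG00000076613, chr12:113266585-113271553, minus strand), a gamma chain, had 103 and 2043 UMIs in the splenic libraries labelled Pdcd1fl/fl and Pdcd1 cKO (17.4 and 228 CPM), 1 UMI in the tumor library labelled Pdcd1fl/fl and 0 in the other 3. Igha (ENSMUSG00000095079, chr12:113218450-113223856, minus strand), the alpha chain, stayed low throughout, at 1 and 15 UMIs in thymus, 1 and 55 in spleen and 1 and 11 in tumor. Among heavy chain genes outside the 10, Ighg2c was read at 294 and 480 UMIs in spleen, 49.5 and 53.5 CPM, and at no more than 3 UMIs in each other library. Ighd, the delta chain of naive B cells, had 7, 20, 10, 24, 4 and 1 UMIs over the 6 libraries in the same order.

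Jchain (ENSMUSG00000067149, chr5:88667668-88675750, minus strand), which links polymeric antibody, followed the chains in spleen, at 29 and 1011 UMIs (4.89 and 113 CPM). It had 2 and 11 UMIs in thymus and 0 and 11 in tumor. Cd79a (ENSMUSG00000003379, chr7:24596740-24601622, plus strand), a signalling subunit of the B cell receptor, had 1 and 17 UMIs in thymus, 6 and 45 in spleen and 10 and 8 in tumor, and so stayed at 5.02 CPM or less. Mzb1 (ENSMUSG00000024353, chr18:35780319-35782642, minus strand), a chaperone of the endoplasmic reticulum in antibody-secreting and marginal zone B cells, departed from the chains: it was read at 36 and 138 UMIs in thymus (5.63 and 7.15 CPM), 2 and 74 in spleen (0.337 and 8.25) and 1 and 118 in tumor (0.106 and 14.9).

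In the splenic library labelled Pdcd1 cKO, few barcodes held most of this RNA. The 10 highest of its 4963 barcodes held 72.9% of the chain UMIs, and 4 barcodes held 50%. The 10 highest barcodes for Cd3e, a T cell gene, held 2.41% of its UMIs in that library, and 623 barcodes were needed for 50%. Single barcodes held 3573 of 4214 Iglc1 UMIs (84.8%), 2705 of 3143 Iglc3 UMIs (86.1%), 420 of 747 Iglc2 UMIs (56.2%), 1017 of 2043 Ighg2b UMIs (49.8%), 4060 of 14277 Igkc UMIs (28.4%) and 343 of 1011 Jchain UMIs (33.9%). Igha was spread there, with 55 UMIs in 55 barcodes, and the 10 highest barcodes for Cd79a held 40% of its 45 UMIs. Genes of other lineages ranged from concentrated to spread: in that spleen a single barcode held 77.6% of Mpo and 66.7% of Elane UMIs, but 10.2% of Cd74 and 2.07% of Hbb-bs UMIs, and in the thymus labelled Pdcd1 cKO a single barcode held 94.6% of Hbb-bs UMIs.

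The other libraries ranged from a single barcode to a wide spread. In the tumor library labelled Pdcd1 cKO, 1 barcode held 2268 of 2872 chain UMIs (78.97%), including all 29 Iglc1 and all 144 Iglc3 UMIs, 1462 of 1503 Iglc2 UMIs and 114 of 118 Mzb1 UMIs. In the splenic library labelled Pdcd1fl/fl the 10 highest barcodes held 36.4% of chain UMIs and 112 barcodes held 50%. In thymus Ighm was spread, with 104 and 193 barcodes for 50% and no barcode above 23 and 13 UMIs in the libraries labelled Pdcd1fl/fl and Pdcd1 cKO. Had the Ighm UMIs been allotted to barcodes by depth, 50.3% and 43.4% of thymic barcodes would hold at least 1, against the 43.0% and 33.4% observed. The same calculation for Igkc in the splenic library labelled Pdcd1 cKO gives 91.5% against 54.4%. It allots all Igkc UMIs, of which the 10 highest barcodes held 68.6%, so this gap restates their concentration.

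**Figure D2:**
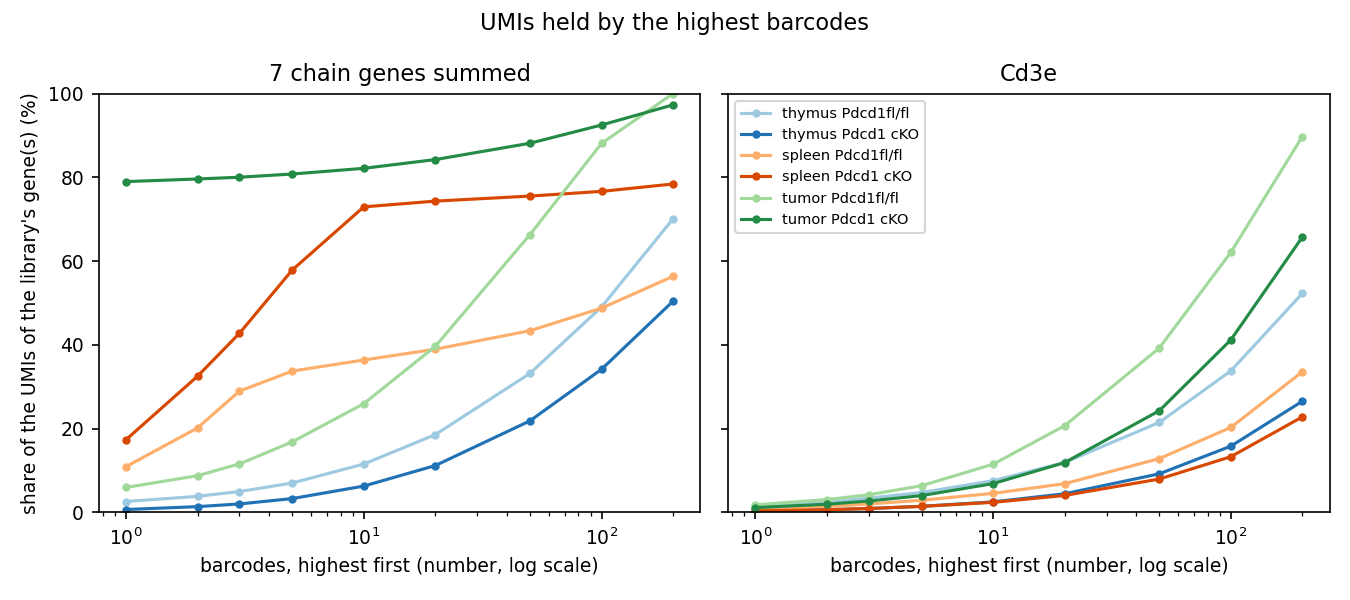
Share of UMIs (y axis, %) held by the highest barcodes (x axis, number of barcodes on a log scale) for the summed chain genes and for Cd3e, each line a library. In the splenic and tumor libraries labelled Pdcd1 cKO the chain lines reach 72.9% and 82.1% at 10 barcodes, while Cd3e is at 2.41% and 6.88%.

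Barcodes with at least 10 chain UMIs that made up at least 1% of their RNA are called immunoglobulin-high here, so a high level of the chains in them follows from the rule. There were 6 in the splenic library labelled Pdcd1fl/fl (0.0866% of barcodes, 0.0318 to 0.188), 23 in the splenic library labelled Pdcd1 cKO (0.463%, 0.294 to 0.695), 1 in the tumor library labelled Pdcd1 cKO (0.178%), and 0 in the other 3 libraries. They held 645 of 1858 (34.7%), 21725 of 29176 (74.5%) and 2268 of 2872 (78.97%) chain UMIs. T cell genes were lower in them, with a median of 1 T cell UMI against 3 in the remaining barcodes, 6 against 9, and 7 against 62. Median depth differed little in spleen, at 718 against 728 and 1592 against 1611 UMIs. In the splenic library labelled Pdcd1 cKO, however, the 10 with at least 100 chain UMIs held 1030 to 7483 UMIs in all. The other 13 held 1055 to 3065.

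A division at 100 chain UMIs, chosen after the values were seen, separated these barcodes further. In the splenic library labelled Pdcd1 cKO, 10 barcodes lay above it with 21281 chain UMIs, and in every one a single light chain gene made up 93.0% to 99.6% of light chain UMIs and a single heavy chain gene at least 90% of heavy chain UMIs. The leading light chain was Igkc in 7 and Iglc1, Iglc2 and Iglc3 in 1 each, and the leading heavy chain was Ighm in 6, Ighg2b in 3 and Ighg2c in 1. All 10 had Jchain RNA, 729 UMIs in all, 8 had Mzb1, 7 had Cd79a, and 7 had at least 2 of 10 plasma cell genes (Sdc1, Tnfrsf17, Derl3, Fkbp11, Xbp1, Prdm1, Irf4, Txndc5, Creld2, Pou2af1). At least 2 of 15 B cell genes were read in 4 of the 10. Over all barcodes of that library, 1.77% had at least 2 plasma cell genes and 0.625% at least 2 B cell genes.

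Several pairings were seen. The highest barcode had 4060 Igkc, 989 Ighm and 343 Jchain UMIs and 18 UMIs of the V segment Igkv3-4 among 7483 UMIs. The next had 3573 Iglc1 and 805 Ighm UMIs among 6176, and the third 2705 Iglc3, 130 Iglc2 and 76 Ighm UMIs among 4974. The fourth paired 1517 Igkc with 1017 Ighg2b UMIs, and the eighth paired 716 Igkc with 220 Ighg2c UMIs. By constant region, single light and heavy chains thus stood together in each, in 6 different pairings over the 10 barcodes. Of the 10 barcodes, 3 held Igkc with Ighm and 3 Igkc with Ighg2b. The few light V segment UMIs did not follow this in most Igkc-led barcodes. In those ranked 4, 5, 6, 7 and 10 by chain UMIs, the lambda segment Iglv1 led, at 3, 1, 2, 8 and 1 UMIs. The Iglc3-led barcode had 1 Iglv1 UMI, and the barcodes ranked 2, 8 and 9 had no light V UMI. The cause was not tested. Chain RNA was over 50% of all UMIs in 6 of the 10 barcodes. Their T cell genes summed to between 1 and 12 UMIs, the 12 being in the tenth barcode, which had 201 Igkc and 81 Ighg2b UMIs and all 8 T cell genes.

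Of the 13 barcodes below 100 chain UMIs in that library, all 13 had at least 2 T cell genes, as had 6 of the 10 above. They had 4 to 12 T cell UMIs, none had 2 plasma cell genes, 3 had Jchain, and together they held 444 chain UMIs (1.52% of the library's). In 12 of them Igkc led, and in 7 the heavy chain was mostly Ighg2b, for example 54 Igkc with 42 Ighg2b UMIs and 15 Igkc with 9 Ighg2b UMIs. A single barcode among them carried a wider B cell profile, with several B cell list genes, among them Pax5, Ebf1 and Blnk, 41 UMIs of MHC class II genes, 3 Cd79a UMIs and mixed light chains (11 Igkc, 7 Iglc2 and 6 Iglc3). Outside that barcode, light chains were mixed in few of these barcodes: a single light chain made at least 90% of light chain UMIs in 11 of the 13.

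The splenic library labelled Pdcd1fl/fl had 3 barcodes above 100 chain UMIs, with 203, 172 and 163. All 3 held Igkc with Ighg2c (37, 119 and 52 UMIs), had between 548 and 766 UMIs in all and at most 1 T cell UMI, and none had 2 plasma cell genes. The chain-rich barcode of the tumor library labelled Pdcd1 cKO was deep, with 17158 UMIs, and carried 1462 Iglc2, 603 Ighm, 144 Iglc3, 114 Mzb1, 29 Iglc1, 23 Igkc, 7 Igha, 3 Cd79a and 2 Jchain UMIs. It also had 55 plasma cell list UMIs from 5 genes, 340 MHC class II UMIs and 7 T cell UMIs. Further, it had 35 UMIs from 3 plasmacytoid dendritic cell genes and 12 UMIs from 3 myeloid genes. Over all barcodes of that tumor library, 31.7% had at least 2 plasma cell genes, 12.1% at least 2 plasmacytoid dendritic cell genes and 55.1% at least 2 myeloid genes. The Mzb1 count of the chain-rich barcode exceeded that of any splenic barcode (28 at most), while its Jchain count was small beside its chains.

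**Figure D3:**
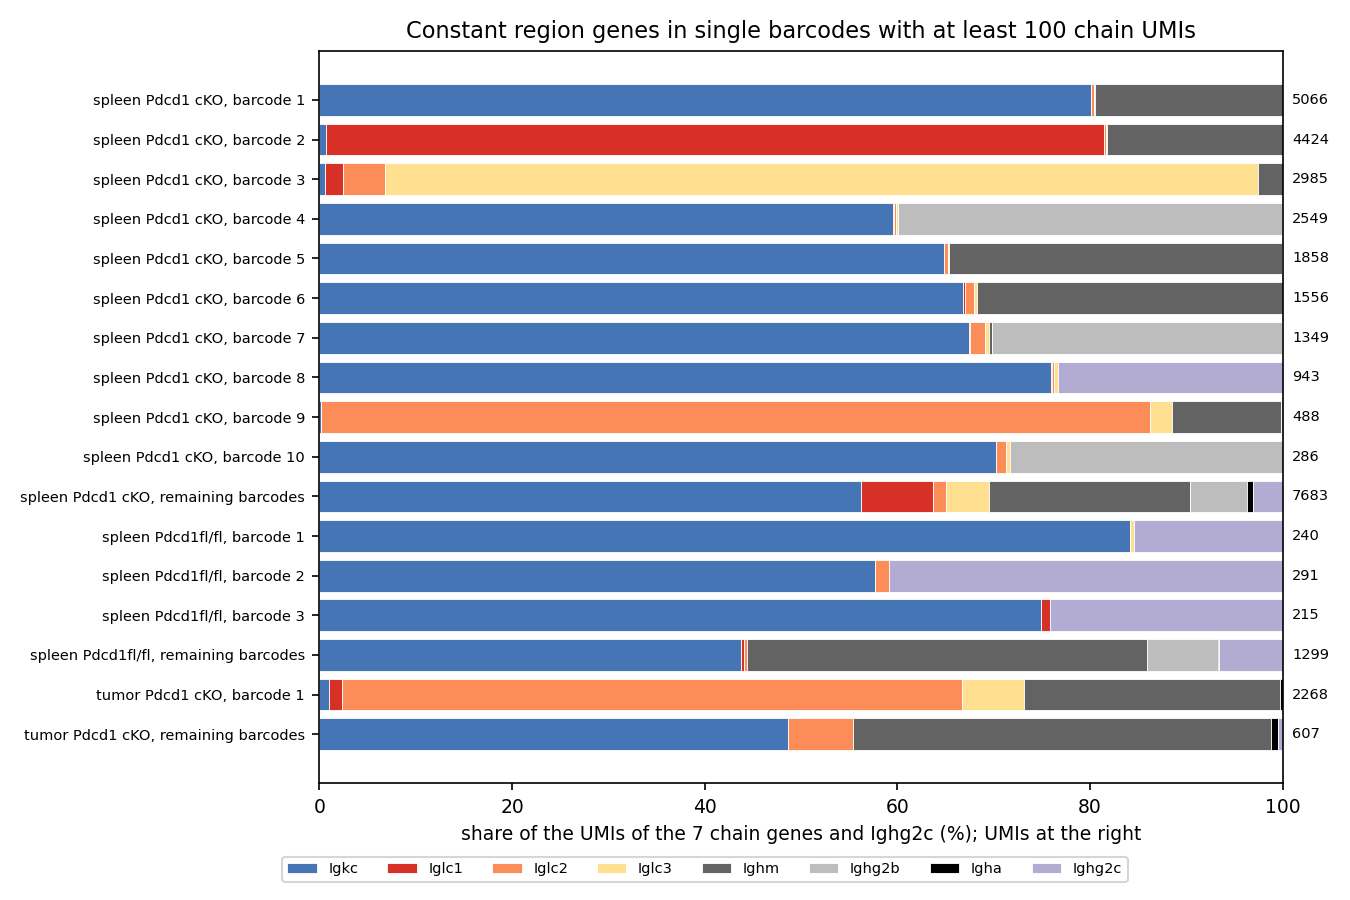
Share (x axis, %) of each constant region gene among the UMIs of the 7 chain genes and Ighg2c in each barcode with at least 100 chain UMIs and in the barcodes that are not immunoglobulin-high (y axis), with the UMIs behind each bar at its right. The splenic barcodes show mostly a single light and a single heavy chain, the tumor barcode has Iglc2 at 88.2% of light chain UMIs, and the remaining barcodes of these 3 libraries hold a mixture in which Igkc has most UMIs, 4318 in the spleen labelled Pdcd1 cKO.

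Light chain genes that read together in a barcode need a note on sequence. Iglc2 and Iglc3 are nearly the same: their coding exons match at 303 of 314 aligned bases (96.5%), and their longest shared run is 79 bases. A stretch of 90 bases holds at least 1 difference between them, and whether UMIs of either gene were assigned to the other was not tested. Iglc1 matches Iglc2 at 74.8% and Iglc3 at 75.7% of 313 aligned bases, with shared runs of at most 19 bases. The 144 Iglc3 UMIs beside 1462 Iglc2 UMIs in the tumor barcode, and the 130 Iglc2 beside 2705 Iglc3 UMIs in spleen, are therefore given as uncertain. To show where the genes can be told apart, the 90 aligned coding bases with the most differences between Iglc2 and Iglc3 (7) are given from GRCm39, 5′ to 3′ on the minus strand, with capitals where the 3 genes are not all alike (25 positions), for Iglc1 at chr16:18880718-18880807, Iglc2 at chr16:19017499-19017588 and Iglc3 at chr16:18884328-18884417.
Iglc1: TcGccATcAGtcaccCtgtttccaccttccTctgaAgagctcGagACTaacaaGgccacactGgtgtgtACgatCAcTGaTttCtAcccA
Iglc2: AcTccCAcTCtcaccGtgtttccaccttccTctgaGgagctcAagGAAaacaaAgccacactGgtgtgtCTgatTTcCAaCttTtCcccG
Iglc3: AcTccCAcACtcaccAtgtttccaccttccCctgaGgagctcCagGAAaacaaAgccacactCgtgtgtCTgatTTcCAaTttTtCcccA

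Without the immunoglobulin-high barcodes, chain RNA remained widespread in the splenic library labelled Pdcd1 cKO. Chains fell from 3255 to 836 CPM there, from 313 to 205 in the other splenic library and from 362 to 76.4 in the tumor library labelled Pdcd1 cKO. Igkc fell to 485 and 95.8 in the splenic libraries labelled Pdcd1 cKO and Pdcd1fl/fl, Ighm to 179.7 and 90.9, Iglc1 to 64.5 and 0.843, Jchain to 30.6 and 4.55, and Mzb1 to 1.35 and 0.169. Most of the Mzb1 RNA of the spleen labelled Pdcd1 cKO was thus in the high barcodes (62 of 74 UMIs). In the tumor library labelled Pdcd1 cKO 37.3 CPM of Igkc remained, Iglc1 and Iglc3 fell to 0, and 41 Iglc2 UMIs remained in 40 barcodes. In the spleen labelled Pdcd1 cKO 2679 of the 4940 remaining barcodes still had an Igkc UMI, and none had more than 14.

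The remaining barcodes did not hold the chains in the ratio of the high ones. In the splenic library labelled Pdcd1 cKO, lambda genes were 41.6% of light chain UMIs in the high barcodes (40.8 to 42.3) and 19.2% in the remaining ones (18.1 to 20.3). This rested on 2 barcodes with 6480 of the 7080 lambda UMIs, and without them, a step chosen after the values were seen, the high barcodes were at 5.71% (5.27 to 6.17), below the remaining ones. Ighm was 14.3% and 21.5% of chain UMIs, Igkc 45.8% and 58.0%, and Igha 0% and 0.738%. Without the same 2 barcodes Igkc was 69.2% of chain UMIs in the high barcodes (68.5 to 69.99), above the 58.0% of the remaining ones. In the other splenic library lambda genes were 1.37% and 1.56% of light chain UMIs, and Ighm was 8.06% and 44.4% of chain UMIs. The lambda share of the remaining barcodes thus differed between the splenic libraries, as did that of the high ones.

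Within the remaining barcodes of the spleen labelled Pdcd1 cKO, Igkc followed neither Ighm nor Cd3e closely. It was read in 57.7% of barcodes with Ighm and 53.1% of those without, and in 55.0% of barcodes with Cd3e and 53.6% of those without. The variance of Igkc UMIs over barcodes was 1.39 times their mean, against 1.31 in the other splenic library. It was 3.18 and 3.72 times in the thymic libraries labelled Pdcd1 cKO and Pdcd1fl/fl, and 2.82 and 3.74 times in the tumor libraries in that order. The thymic values rested on 76 and 11 Igkc UMIs, of which 1 barcode held 10 and 6. V segments were rare: of 346 V genes in the files, 133 UMIs were read in the spleen labelled Pdcd1 cKO, 93 of them in the remaining barcodes, and 10 or fewer in each other library.

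Igkc and Ighm also differed in how they followed depth. In CPM, Igkc in the remaining barcodes of the spleen labelled Pdcd1 cKO was 668, 553, 467 and 387 from the shallowest to the deepest quartile of barcodes, whereas Ighm was 188, 183, 176 and 177. The other splenic library gave Igkc values of 138, 112, 95.1 and 74.3. In thymus, Ighm was higher in deep barcodes, at 92.3 in the first and 159 in the fourth quartile of the library labelled Pdcd1fl/fl and 71.5 and 111 in the one labelled Pdcd1 cKO, and Igkc was lower there, at 13.4 and 1.02 in the second. Cd3e CPM fell over the same thymic quartiles, from 357 to 257 and from 333 to 233.

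**Figure D4:**
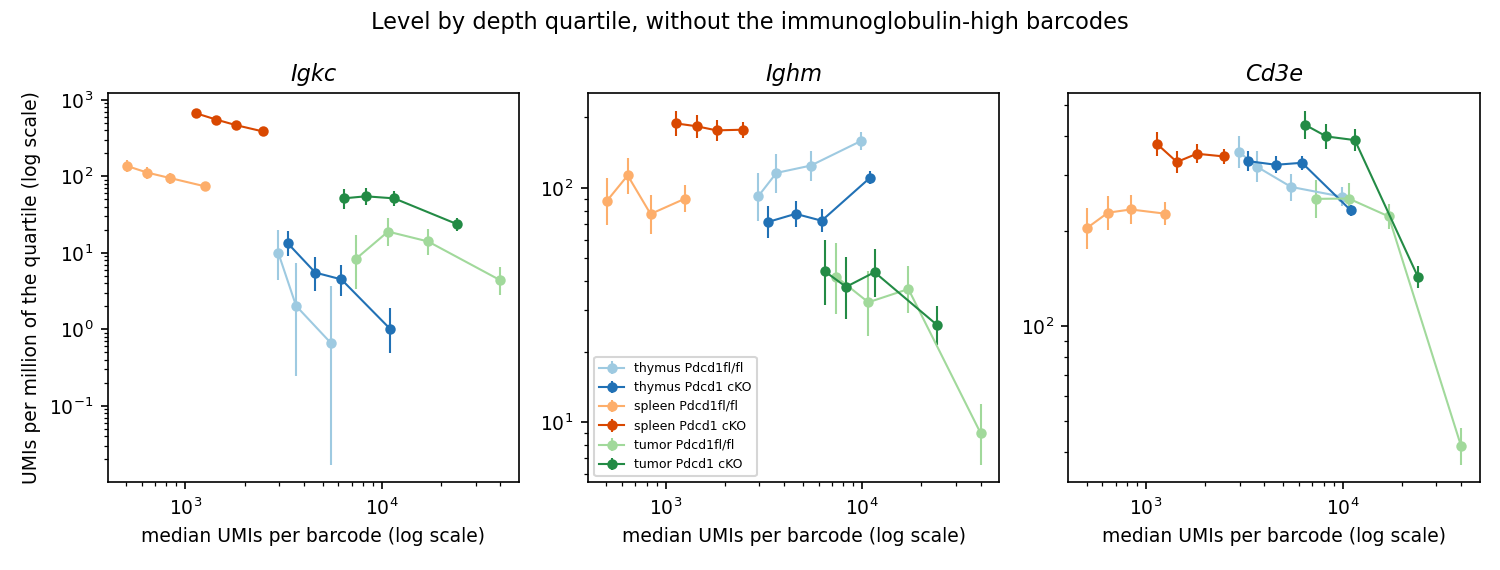
CPM (log axis) of Igkc, Ighm and Cd3e against the median UMIs per barcode (log axis) of 4 depth quartiles in each library, without the immunoglobulin-high barcodes; bars are exact Poisson 95% intervals and quartiles with 0 UMIs are not drawn. Igkc falls with depth in the splenic libraries (668 to 387 and 138 to 74.3), and Ighm rises with depth in thymus (92.3 to 159 and 71.5 to 111).

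Melanocyte-marked barcodes of the tumor gave a comparison class whose own cells should lack these genes. The classes were not pure, since a barcode with genes of several lists went to the list with more UMIs. At least 2 T cell genes were read in 426 of 457 barcodes labelled Pdcd1fl/fl and 556 of 561 labelled Pdcd1 cKO. At least 2 melanocyte genes were read in 357 and 274, so many barcodes carried both. In the tumor library labelled Pdcd1fl/fl an Igkc UMI was read in 29 of 288 T-marked barcodes (10.1%, 6.85 to 14.1) at a median depth of 11034.5 UMIs, in 8 of 143 melanocyte-marked barcodes (5.59%, 2.45 to 10.7) at 31846, and in 0 of 26 myeloid-marked barcodes. In the tumor library labelled Pdcd1 cKO it was read in 151 of 467 T-marked barcodes (32.3%, 28.1 to 36.8) at a median of 9115 UMIs, in 12 of 58 melanocyte-marked barcodes (20.7%, 11.2 to 33.4) at 35962.5, and in 3 of 36 myeloid-marked barcodes (8.33%). For Igkc, intervals for T-marked and melanocyte-marked barcodes overlapped in each tumor library for shares, which were not matched for depth, but not for CPM. For Ighm the shares did not overlap either. They were 32.6% (27.3 to 38.4) and 4.90% (1.99 to 9.83) in the library labelled Pdcd1fl/fl. In the one labelled Pdcd1 cKO they were 25.3% (21.4 to 29.5) and 10.3% (3.89 to 21.2). In CPM, Igkc was 19.5 (15.3 to 24.4) and 53.2 (47.1 to 59.8) in T-marked and 1.51 (0.651 to 2.97) and 6.12 (3.35 to 10.3) in melanocyte-marked barcodes, and Ighm was 46.8 and 42.5 in T-marked and 1.70 and 5.69 in melanocyte-marked barcodes. Iglc2 and Cd79a did not follow this: in the tumor library labelled Pdcd1 cKO Iglc2 was at 4.77 (3.08 to 7.04) in T-marked and 5.69 (3.03 to 9.73) in melanocyte-marked barcodes, read in 5.35% and 20.7% of them, and Cd79a was at 0.260 and 0.381 in T-marked and 1.70 and 1.31 in melanocyte-marked barcodes of the libraries labelled Pdcd1fl/fl and Pdcd1 cKO, on 9 UMIs or fewer. The chain-rich tumor barcode was itself marked myeloid by its genes, so the myeloid-marked barcodes of that library gave 5847 CPM of chain RNA, and 87.7 without it, a step chosen after the values were seen. Ighm in myeloid-marked barcodes was at 40.2 CPM (19.3 to 73.9) in the library labelled Pdcd1fl/fl, beside 46.8 (40.2 to 54.2) in T-marked ones. In the other library it was at 74.4 (49.4 to 107.5) without the chain-rich barcode, beside 42.5 (37.1 to 48.5). In spleen and thymus no class that should lack the genes had 20 barcodes.

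Barcodes that carried T cell genes held chain RNA in every library. Chains stood at 138 and 97.2 CPM in T-marked barcodes of the thymic libraries, 204 and 2599 in the splenic ones and 66.6 and 101 in the tumor ones. In the splenic library labelled Pdcd1fl/fl all 6 high barcodes lay among the 2217 barcodes without a marked class, whose level was 648, and 207 without them, a calculation added after the values were seen. In the other splenic library 19 of the 23 high barcodes counted as T-marked, and asking for 3 T cell genes in place of 2 lowered its T-marked level to 2005. The 19 held 15551 of the 22865 chain UMIs in T-marked barcodes, and without them, by the same added calculation, the level was 836 (817 to 855), beside 989 (821 to 1180.5) in the 92 remaining barcodes without a marked class.

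Genes of the B cell list were low in every library. The list of 15 B cell genes summed to 50.2 and 40.0 CPM in thymus, 43.0 and 59.0 in spleen and 65.7 and 63.5 in tumor, with 9, 15, 12, 14, 13 and 10 of 15 genes read. Fcrla was its most abundant gene in every library, and the defining gene Ms4a1 had at most 3 UMIs in any library and 0 in the thymus labelled Pdcd1fl/fl and the tumor labelled Pdcd1 cKO. The 10 plasma cell genes summed to 93.7 and 98.5, 99.2 and 130.2, and 219 and 160.1 CPM. Their most abundant genes were Creld2, Xbp1, Xbp1, Txndc5, Fkbp11 and Creld2, and T cells also express 4 of the 10 (Xbp1, Prdm1, Irf4 and Txndc5), while Tnfrsf17 was at 0 in 4 libraries with 2 UMIs in the spleen labelled Pdcd1 cKO and 1 in the tumor labelled Pdcd1fl/fl. In that spleen the plasma list was at 1525 CPM in the high and 121 in the remaining barcodes. The B cell list was there at 532 and 56.0, and MHC class II genes at 3671 and 54.8. Plasmacytoid dendritic cell genes were at 709 and 143, and myeloid genes at 443 and 122. T cell genes went the other way, at 2305 and 5799, as did granulocyte progenitor genes, at 0 and 76.0. The part of either cell type in the chain RNA of the remaining barcodes was not tested.

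Other lists also varied between libraries. MHC class II genes (4, with Cd74 or H2-Ab1 the most abundant) summed to 23.2 and 40.4 CPM in thymus, 4.04 and 77.5 in spleen and 1288 and 2768 in tumor. The 4 granulocyte progenitor genes came to 0.313, 0.518, 1.18, 75.5, 2.23 and 1.14 in the order thymus, spleen, tumor with Pdcd1fl/fl named before Pdcd1 cKO, so the splenic library labelled Pdcd1 cKO stood out there too. The 4 erythroid genes came to 0.313, 170.3, 1.68, 29.4, 1.38 and 0.631, the 8 myeloid genes, with Cst3 the most abundant, to 131, 93.1, 81.2, 124, 801 and 1296, the 8 T cell genes to 5954, 5729, 4238, 5777, 2580.05 and 4708, and the 5 melanocyte genes to 4.85, 4.40, 3.03, 3.01, 8657 and 4809. The 7 plasmacytoid dendritic cell genes summed to 1010.0, 1004, 104, 147, 897 and 857, with Ly6d the most abundant in thymus and Bst2 elsewhere, of which T cells also express Bst2, Ccr9 and Tcf4, and with Klk1 at 0 in 5 libraries. The 5 B cell precursor genes summed to 515 and 407 in thymus, where Dntt, which thymocytes also express, made up over 90% of them, and to at most 3.90 elsewhere.

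In thymus, as in the spleen labelled Pdcd1 cKO, a barcode with a wider B cell profile was seen. A single barcode in the thymus labelled Pdcd1 cKO had 6 B cell list genes, 70 MHC class II UMIs, 10 Igkc, 3 Cd79a and 3 Mzb1 UMIs, and it was the highest of that library for Igkc. Mzb1 in thymus was instead spread over 32 and 114 barcodes with at most 3 and 4 UMIs in each. Splitting barcodes by Dntt and by Il2ra, genes of early thymocytes chosen after the values were seen, Mzb1 was at 6.72 and 9.24 CPM with Dntt against 1.51 and 2.74 without, and at 11.4 and 13.7 with Il2ra against 3.13 and 3.78 without. Ighm was at 144 and 100.2 with Dntt against 105 and 76.2 without, and at 119 and 78.1 with Il2ra against 143 and 99.9 without. In the same split by Cd8b1, Ighm was at 148 and 100.2 with it against 125 and 81.1 without. Mzb1 was at 2.94 and 3.40 with Cd8b1 against 8.10 and 12.6 without. Thymic barcodes with Dntt were also deeper, at medians of 5364 and 6113 UMIs against 3475 and 4706.5, and the part of depth was not tested.

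Between the splenic libraries, all 10 genes were over 2-fold higher in the one labelled Pdcd1 cKO and 0 were over 2-fold lower. Of 13194 genes with at least 20 UMIs in the 2 libraries together, 7.62% were over 2-fold higher and 3.83% lower, at a median log2 ratio of 0.16 against 4.57 for the 10 genes. Median-of-ratios scaling gave 5.20% higher and 5.90% lower, with all 10 genes still over 2-fold higher. Since the genes were chosen with these values known, nothing is read from the count. The log2 ratios were 3.04 (2.96 to 3.13) for Igkc, 8.64 for Iglc1, 5.95 for Iglc2, 10.02 for Iglc3, 2.40 (2.27 to 2.52) for Ighm, 3.72 for Ighg2b, 5.19 (2.65 to 10.52) for Igha, 4.53 for Jchain, 2.31 (1.08 to 3.83) for Cd79a and 4.61 (2.71 to 7.69) for Mzb1. Ighg2c, which leads the heavy chains of 3 barcodes in one splenic library and of 1 in the other above 100 chain UMIs, had a ratio of 0.11 (-0.10 to 0.33). Under the study's cell filter all 10 genes were again over 2-fold higher, with ratios of 4.20 for Igkc, 10.03 for Iglc1 and 4.75 for Iglc2, outside the counting intervals of the values above, while the other 7 stayed within theirs. Leaving out the immunoglobulin-high barcodes left 8 of 9 genes over 2-fold higher and moved the ratios to 2.34 for Igkc, 6.26 for Iglc1, 4.51 for Iglc2, 7.85 for Iglc3, 0.98 for Ighm, 1.65 for Ighg2b, 2.75 for Jchain and 1.69 for Cd79a.

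Between the tumor libraries, 6 of the 10 genes had at least 20 UMIs, and all 6 were over 2-fold higher in the library labelled Pdcd1 cKO, where 6.78% of 14094 genes were higher and 11.2% lower. Median-of-ratios scaling turned this balance to 9.61% and 6.80%. The log2 ratios were 2.18 (1.83 to 2.55) for Igkc, 10.80 (8.32 to 16.10) for Iglc2, 2.37 (2.15 to 2.60) for Ighm and 7.13 (4.62 to 12.45) for Mzb1. With the count of 0 set to a floor of 3 UMIs they were 3.52 for Iglc1 and 5.83 for Iglc3. The lower interval limits of these 2 were 3.13 and 5.51. A single barcode carried much of this. Without it 2 of 3 genes with at least 20 UMIs remained over 2-fold higher, the ratio of Ighm was 0.66, and that of Iglc2 5.61, whereas Igkc was at 2.08, and Mzb1 then rested on 1 and 4 UMIs. The cell mix differed as well, with T cell genes at 2580.05 and 4708 CPM and melanocyte genes at 8657 and 4809, and in T-marked barcodes Ighm was at 46.8 (40.2 to 54.2) and 42.5 (37.1 to 48.5) CPM, lower in the library labelled Pdcd1 cKO with overlapping intervals.

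Between the thymic libraries, 3 of the 10 genes had at least 20 UMIs, of which 1 was over 2-fold higher and 0 over 2-fold lower in the library labelled Pdcd1 cKO, beside 8.61% higher and 5.35% lower of 14398 genes. The log2 ratio was 1.19 (0.27 to 2.26) for Igkc, -0.56 (-0.67 to -0.44) for Ighm and 0.34 (-0.19 to 0.92) for Mzb1. Igkc rested on 11 and 76 UMIs, and without the 10 highest barcodes of each library its ratio was 0.82.

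Outside the immunoglobulin loci, the genes most enriched in the 23 high barcodes of the spleen labelled Pdcd1 cKO, among 1184 candidates, were Prg2, Mzb1, Jchain, Mpped2, Hes1, Mt2, Cd79a, Mt1, Cd74 and Gm30211. Mzb1 stood at 1099 CPM in the high barcodes against 1.35 in the rest, Jchain at 13087 against 30.6, Cd74, the invariant chain of MHC class II, at 3298 against 43.0, and the metallothionein Mt1 at 2004 against 25.7. Several were carried by few of the high barcodes: of the UMIs in high barcodes, all 33 of Mpped2 came from 1 barcode, and 76 of 113 Mt1, 29 of 43 Mt2, 16 of 23 Prg2 and 11 of 16 Hes1 UMIs from 1 barcode each. In the splenic library labelled Pdcd1fl/fl the 10 genes among 147 candidates were Hes1, Zfp51, Mrpl3, Fkbp2, Spn, Txnl4a, AI506816, Gpx1, Eif3k and Dapk1, of which Zfp51, Mrpl3, Fkbp2, Spn, Txnl4a and Gpx1 had all their UMIs within the high barcodes in 1 barcode each. Hes1 was named in both libraries, and in this one 4 of its 6 UMIs within the high barcodes came from 1 barcode.

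Over the 6 libraries, the genes whose log2 level ran most like that of the summed chains, among 13140 with at least 100 UMIs, were Rac2 (Pearson r = 0.982), Cd48 (0.978), Rabif (0.956), Gm42743 (0.955) and Btbd19 (0.953). With 6 points, 3 tissues and 13140 candidates these values are a description only. The high barcodes of the spleen labelled Pdcd1 cKO held 35 of 8731 Rac2 and 3 of 1093 Cd48 UMIs. For comparison, they held 195 of 36424 B2m and 5 of 3112 Cd3e UMIs, so nothing is read from these counts.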

How the data were processed

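The authors made 6 PIPseq v3 libraries of mouse CD8+ T cells, 1 for each tissue and genotype, and deposited raw UMI counts for each gene and barcode, aligned to GRCm39 with barcodes called as cells by the PIPseq pipeline. The annotation release is not given. Their own later steps used Seurat 4.3.0. All deposited barcodes were used here, without normalization beyond CPM, the UMIs of a gene over all UMIs of the library. Intervals are at 95% and cover counting error only: exact Poisson for CPM, Clopper-Pearson for shares, and conditional binomial for log2 ratios of the library labelled Pdcd1 cKO over the one labelled Pdcd1fl/fl. With 1 library per group no test was made. Genes with at least 20 UMIs in a pair of libraries entered the ratios, and a change over 2-fold was counted.

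The 10 genes and the marker lists were chosen with earlier results of these data known. The division at 100 chain UMIs, the split of thymic barcodes by Dntt, Il2ra and Cd8b1, and list genes named for few or 0 UMIs were chosen after the values were seen. The level and concentration of each gene were also computed after leaving out barcodes rich in immunoglobulin, namely those with at least 10 UMIs over the 7 chain genes that made at least 1% of the barcode. Shares across libraries were compared after thinning each barcode at random (seed 7) to 1000 UMIs. Median depth was 4361 and 5384 UMIs per barcode in thymus (Pdcd1fl/fl and Pdcd1 cKO), 728 and 1611 in spleen and 13837 and 9510 in tumor. At these totals the floor of 3 UMIs set for a count of 0 is 0.155 to 0.505 CPM.

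Barcodes were classed as T cell, myeloid or melanocyte by at least 2 genes of a list, taking the class with more UMIs where several applied, and classes under 20 barcodes were left out. Lists for B cells, plasma cells, B cell precursors, plasmacytoid dendritic cells, MHC class II, granulocyte progenitors and erythroid cells were summed per library. Besides the 10 genes and Pdcd1, the genes named are the 10 outside the immunoglobulin loci with the highest CPM fold in the immunoglobulin-high barcodes of a library with at least 5 such barcodes (at least 5 UMIs in them and 20 in the library, 0.5 added), the 5 whose log2(CPM + 1) over 6 libraries had the highest Pearson r with the summed chains, among genes with at least 100 UMIs, the leading V segment of a high barcode, other constant region genes, and list genes with at least 20 UMIs in a library.

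Alternatives were the study's cell filter (at least 500 genes and 1000 UMIs, at most 20% mitochondrial counts), other thresholds, scalings and thinning depths, and leaving out the highest barcodes. Coding sequences of Iglc1, Iglc2 and Iglc3 were aligned globally, with positions from GENCODE vM39. The calculations used Python 3.11.15, numpy 2.4.6, scipy 1.17.1 and pandas 2.3.3, and were tested on simulated data. No doublets were removed.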

Additional observations from a re-analysis of the deposited data

Results flagged for a closer look

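Ighm went opposite ways between genotypes in different tissues, which is why it is given here. Its log2 ratio between genotypes, with Pdcd1fl/fl as the base, was -0.56 in thymus (869 and 1785 UMIs in the libraries labelled Pdcd1fl/fl and Pdcd1 cKO), 2.40 in spleen (591 and 4697 UMIs) and 2.37 in tumor (199 and 867 UMIs). Each tissue has 1 library per genotype, so the difference between tissues was not tested. Without the immunoglobulin-high barcodes the ratio was 0.98 in spleen and 0.66 in tumor and stayed at -0.56 in thymus, where no barcode met that rule. In T-marked tumor barcodes Ighm was at 46.8 (40.2 to 54.2) and 42.5 (37.1 to 48.5) CPM in the libraries labelled Pdcd1fl/fl and Pdcd1 cKO, so the tumor direction was not seen there. Melanocyte genes were at 8657 and 4809 CPM in these libraries. Pdcd1 RNA went against the genotype labels in thymus and spleen, and in tumor by CPM but not per UMI of T cell genes, so the direction is given by label only. The paper reports loss of PD-1 protein by flow cytometry in mice of this model, which these counts do not measure, and the cause was not tested.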

How the results depend on the processing

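In 91 recalculations of the 19 log2 ratios of the 10 genes, no ratio over 2-fold changed sign. The ratios under 2-fold, those of Ighm and Mzb1 in thymus, were not checked for sign. Iglc1 and Iglc3 in tumor had 0 UMIs in both libraries without the immunoglobulin-high barcode, so they gave no ratio there. Of 901 recalculations of 275 results, 692 moved by less than the counting interval, or for counts of genes or barcodes by at most 1.5 times. Most of the results are levels, shares or counts that have no sign. The summed chain genes stood at 313 CPM in the spleen labelled Pdcd1fl/fl, 3255 in the spleen labelled Pdcd1 cKO and 362 in the tumor labelled Pdcd1 cKO. With the study's cell filter the splenic values became 194.5 and 3129.7, and scaling to a total without mitochondrial genes, ribosomal protein genes and Malat1 gave 531, 4948.5 and 548. Without the 10 highest barcodes of each library they were 199.4, 884 and 67.0.

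The share of barcodes with Igkc after thinning to 500 UMIs was 4.74% and 22.4% in the splenic libraries labelled Pdcd1fl/fl and Pdcd1 cKO, in place of 6.50% and 38.4% at 1000, and 54.4% in the second with no thinning. In the spleen labelled Pdcd1fl/fl the number of immunoglobulin-high barcodes went from 6 to 1 with the cell filter and to 9 at 5 chain UMIs. It went to 3 at 100 chain UMIs, a threshold chosen after seeing the data. In the spleen labelled Pdcd1 cKO it went from 23 to 15 at 2% of the barcode and to 10 at 100 chain UMIs, with 73.9% and 72.9% of chain UMIs in place of 74.5%, and the cell filter gave 73.5%. Leaving out the barcodes shared by the splenic libraries, also chosen after seeing the data, moved none of 22 results. Further steps were chosen so too: scaling to T cell gene UMIs turned the Pdcd1 log2 ratio in tumor from 0.42 to -0.45, and leaving out 2 barcodes lowered the lambda share of the high barcodes in the spleen labelled Pdcd1 cKO from 41.6% to 5.71% and raised that of Igkc among chains from 45.8% to 69.2%.

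Of the 10 genes, 0 in thymus (1 before) and 2 in tumor (6 before) were over 2-fold higher without the 10 highest barcodes, and 2 in tumor without the immunoglobulin-high barcode. In thymus the ratio of Igkc fell under 2-fold, from 1.19 to 0.82. In tumor 3 genes then had at least 20 UMIs in place of 6, and Ighm went from 2.37 to 0.61 and 0.66. Igkc went from 2.18 up to 2.83 without the 10 highest barcodes, and to 2.08 without the immunoglobulin-high barcode. Asking for 3 T cell genes in a T-marked barcode gave 2005 CPM of chains in place of 2599 in the spleen labelled Pdcd1 cKO, and leaving out immunoglobulin-high barcodes, chosen after seeing the data, gave 836. The cause of these moves was not tested. Of the 823 recalculations not given one by one, 64 moved up and 122 down. Scaling without mitochondrial, ribosomal protein and Malat1 counts shifted the median log2 ratio of all genes by 0.18 in thymus and -0.16 in spleen, and median-of-ratios scaling by -0.19 in spleen and 0.23 in tumor.

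No paired analysis was possible by mouse because the labels do not name the mice, and no result here comes from a test. A comparison of genotypes blocked by tissue over the 6 libraries was possible but was not run. Depth limits the shares most in the spleen labelled Pdcd1fl/fl, where 5267 of 6929 barcodes lie under 1000 UMIs and leave the thinned comparison, and limits Igha, Cd79a and Jchain outside spleen, which rest on at most 17 UMIs in a library.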
